A study of Mus musculus with 24 samples.

Results

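The Hox genes and the genes of their DNA-binding cofactors were read in RNA of the rear part of the mouse brain, taken whole and from the ribosomes of serotonin cells. They were found by symbol in the count files: 39 Hox genes of the Hoxa, Hoxb, Hoxc and Hoxd clusters, 3 Meis genes and 4 Pbx genes, 46 of 24062 genes. Brains of wild-type (WT) mice and of mice labelled as knockouts of the RNA-binding protein gene Celf6 (KO) were dissected at postnatal day 9. The tissue was the part behind the thalamus, without the cortex, and the labels do not say how far back it reached. Each brain was to give total RNA (input) and RNA purified with tagged ribosomes by translating ribosome affinity purification (TRAP), with a TRAP allele that marks serotonin cells and that the labels name for KO and WT alike; no strain is named. WT input had 3 libraries, and KO input, WT TRAP and KO TRAP had 5 each.

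Hox genes encode homeodomain transcription factors that stand in clusters and give cells of the hindbrain and spinal cord their position along the body axis. Genes at the 3′ end of a cluster, with low paralog numbers, reach furthest forward, and genes at the 5′ end are used further back; the midbrain and the front of the hindbrain express no Hox gene. Pbx and Meis proteins are homeodomain factors of the TALE class that bind DNA together with Hox proteins. Serotonin neurons arise in the hindbrain on both sides of the front limit of Hox expression, so that the forward raphe nuclei come from tissue without Hox genes and the rear ones from tissue with them.

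The 19 libraries used held 3390423 to 6861963 counts. Replicates 2 and 3 of WT input were as alike as 2 runs of 1 library: their chi-square per gene was 1.34, while 4 such pairs of runs had 1.37 to 2.58 and 35 pairs of different libraries had 24.7 to 90.3. They differed by no more than sampling noise of this kind, so their sum, WT input 2/3, counts as 1 sample. Celf6 itself lay between 85.2 and 187.5 CPM (counts scaled to library size) in WT TRAP and between 21.4 and 114.9 in KO TRAP. In input it lay between 15.4 (WT input 2/3) and 104.5 CPM in WT and between 4.79 and 22.0 in KO. The genotypes thus overlapped in both kinds of RNA, and WT input 2/3 lay inside the KO input range. The library labelled KO TRAP 1 held the 114.9 CPM and, as did the library labelled WT input 5, counts of both Xist and Y-linked genes (381 and 154 counts in the first). Results are therefore also given without each of these 2 libraries. All CPM below are scaled with trimmed-mean (TMM) factors unless said otherwise. The labels do not say that the libraries of a group came from separate litters, and p-values measure the spread between these libraries.

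Hox genes were detected up to paralog group 8 in both kinds of RNA. A gene was taken as detected in a kind of RNA when at least 1 CPM was present in at least 50% of its libraries, that is in 4 of 8 input or 5 of 10 TRAP libraries. By that rule 19 of 39 Hox genes were detected in input and 15 in TRAP, and the 15 were all among the 19. The detected genes were 6 of 11 Hoxa, 7 of 10 Hoxb, 3 of 9 Hoxc and 3 of 9 Hoxd genes in input. The 4 genes detected in input alone were Hoxd4, Hoxa6, Hoxc6 and Hoxb7, and the difference in detection was not tested. Of all genes in the files, 54.6% were detected in input and 53.3% in TRAP.

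**Figure D1:**
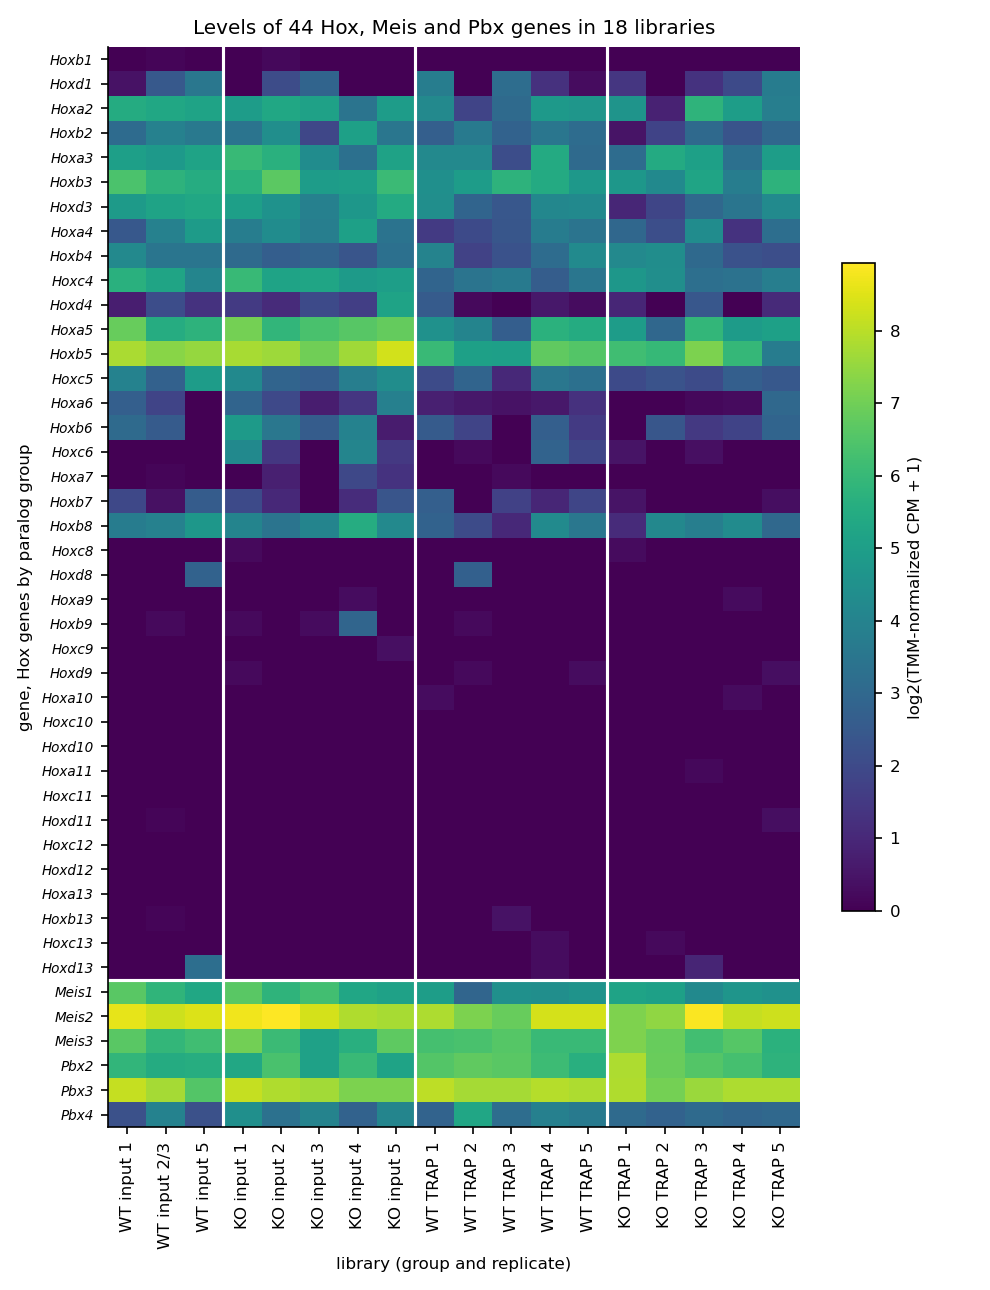
Level of each of 44 member genes (rows, Hox genes by paralog group, then Meis and Pbx) in each of the 18 libraries (columns by group), as log2(CPM + 1) in color. Most Hox rows up to Hoxb8 are filled, Hoxb1 and the rows beyond Hoxb8 are nearly empty, and the 6 Meis and Pbx rows are filled in every library.

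By that rule the front of the code was nearly complete. In paralog groups 1 to 3, 7 of 8 genes were detected in both kinds of RNA. Hoxb1 was not, and had 1 count in each of 2 input libraries and 0 elsewhere. Hoxd1 stood at the limit of the rule in input, with at least 1 CPM in 4 of 8 libraries, and in 7 of 10 in TRAP. In groups 4 and 5, all 7 genes were detected in input and 6 in TRAP. In groups 6 to 8, 5 of 8 were detected in input and 2 in TRAP, Hoxb6 and Hoxb8.

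Beyond group 8 the clusters were almost silent. The 16 genes of groups 9 to 13 held 84 counts over the 18 libraries, and 6 of them (Hoxc10, Hoxd10, Hoxc11, Hoxc12, Hoxd12 and Hoxa13) had a count of 0 in every library. That allows a level of up to 0.0307 CPM over all libraries (3 counts), for counting error only. The largest values were single libraries: 28 counts of Hoxd13 in the library labelled WT input 5 and 27 counts of Hoxb9 in KO input 4. Other genes under the rule were Hoxa7 (0 to 2.87 CPM), Hoxc8 (1 count in each of 2 libraries) and Hoxd8, which had 6.02 CPM in WT input 5, 5.68 in WT TRAP 2 and 0 in the other 16 libraries.

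Hoxb5 led the Hox genes in both kinds of RNA. Levels of different genes were compared per kilobase (kb) of exon, since longer transcripts give more counts. Hoxb5 had 106.8 ± 29.6 CPM per kb in input (SD, n = 8) and 35.8 ± 20.4 in TRAP (n = 10). Next came Hoxa5, with 46.5 ± 17.4 CPM per kb in input and 15.7 ± 9.55 in TRAP. Hoxa5 is known for its part in lung growth and in the brainstem circuit for breathing. Paralog group 5 alone made up 51.5% of the summed Hox CPM in input and 41.4% in TRAP, and the Hoxb cluster 53.3% and 52.6%.

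Behind these stood a set of genes whose levels overlapped. Hoxc4 (18.8 ± 7.30 CPM per kb in input), Hoxa2 (18.3 ± 5.89), Hoxb3 (15.6 ± 6.79), Hoxa3 (13.3 ± 6.71), Hoxa4 (11.1 ± 6.21) and Hoxd3 (10.3 ± 3.28) followed, and neighbors in this order lay within each other's SD. Hoxa2 is the Hox gene that reaches furthest forward in the hindbrain. In TRAP the order of the same 6 genes was Hoxa2 (11.4 ± 9.10), Hoxb3 (8.64 ± 3.91), Hoxa3 (8.33 ± 5.90), Hoxc4 (6.05 ± 3.13), Hoxa4 (4.62 ± 3.64) and Hoxd3 (3.60 ± 2.49 CPM per kb). Neighbors in that order did not differ beyond their SD.

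**Figure D2:**
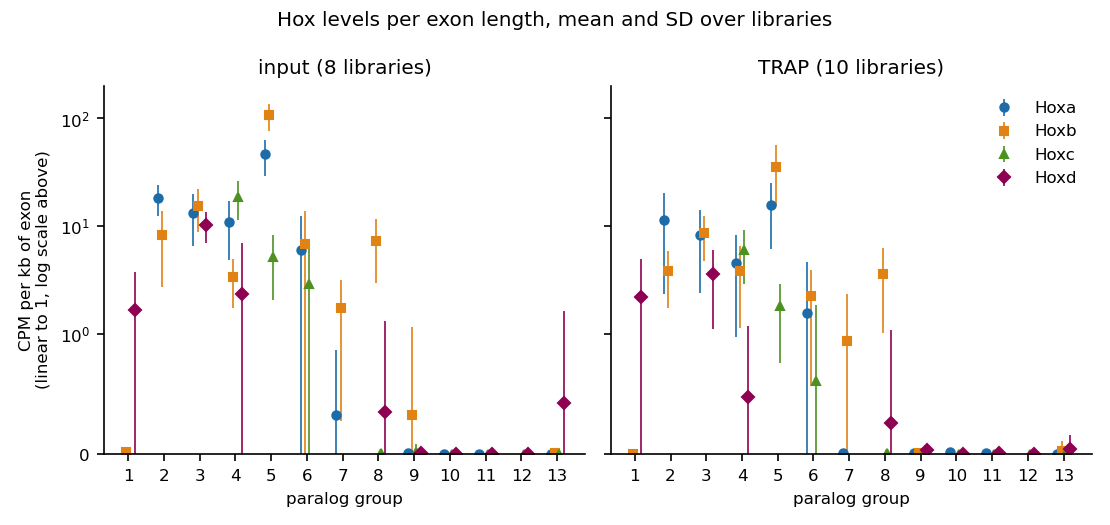
Mean level per kb of exon (points) and SD over libraries (bars) of 38 Hox genes against their paralog group, by cluster, in input (left, n = 8) and TRAP (right, n = 10). The axis is linear up to 1 CPM per kb and logarithmic above; group 5 is highest in both, at 106.8 and 35.8 CPM per kb for Hoxb5.

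Cofactor genes were present in all 18 libraries. Pbx3, without which mice fail to breathe after birth, had 69.9 ± 24.1 CPM per kb in input and 76.1 ± 12.4 in TRAP. Meis2 had 65.0 ± 17.6 in input and 47.7 ± 20.9 in TRAP. In input Hoxb5 stood above both genes in mean level per kb, while in TRAP it stood below Pbx3, Meis2 and Meis3. The lowest cofactor gene was Pbx4 in input (8.27 ± 4.796 CPM per kb) and Meis1 in TRAP (6.84 ± 2.41).

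Hox and cofactor proteins meet on DNA at short motifs, and the starts of the member genes were read for 2 of them. These were TGACAG, the motif of Meis, and TGATNNAT, the joint motif of Pbx and Hox, in the 250 bases before the gene start given by RefSeq, on both strands; no match of one overlapped a match of the other. RefSeq promoters (GRCm38.p6) matched 27 of the 46 genes. TGACAG was found before 2 of these 27 genes (7.4%, against 15.9% of 32851 promoters in the table), and TGATNNAT before 4 (14.8%, against 7.7%). Member shares are of genes, 2 of which had 2 promoters, while the others are of single promoters. All matches are shown; they fall in Hoxa2, Hoxa3 and Hoxb8, detected in both kinds of RNA, and in Hoxb1 and Hoxd11, detected in neither. Each stretch of 30 bases is written 5′ to 3′ on the strand of its gene, with the motif in capitals, and each ends before the RefSeq start. The Hoxd11 stretch lies inside the span over which that gene was counted, which begins further upstream.
Hoxa2, Meis motif: gaagcaatcatgTGACAGccaattcggtcc
Hoxa2, Pbx-Hox motif: gacttttttggATCAATCAaacagacagtg
Hoxa3, Meis motif: ggctgccgaagcgacagCTGTCAgagaggc
Hoxb1, Pbx-Hox motif: tgattggggggTGATGGATgggcgctggga
Hoxb8, Pbx-Hox motif: ctttatcaataataaggaaATTGATCAtta
Hoxd11, Pbx-Hox motif: ttaccaccagaATCAATCAagatgaattgc
They lie at chr6:52164858-52164887 and chr6:52164924-52164953 (Hoxa2, minus strand), chr6:52213068-52213097 (Hoxa3, minus strand), chr11:96365585-96365614 (Hoxb1, plus strand), chr11:96281875-96281904 (Hoxb8, plus strand) and chr2:74682239-74682268 (Hoxd11, plus strand). Hoxa2 was the gene with both motifs, at bases −111 to −104 and −44 to −39 from its start. The Hoxb1 match lies in the stretch before the gene known for autoregulation by Hoxb1 with Pbx. A match says only that these letters are there.

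In sum, Hox transcripts were scarcer in TRAP RNA than in input, and TRAP RNA also held markers of other cells. The summed level of the 39 Hox genes ran from 401.8 (KO input 3) to 762.1 CPM (KO input 5) in input, with a median of 582.7. In TRAP it ran from 146.7 (WT TRAP 3) to 418.2 CPM (KO TRAP 3), with a median of 225.1. Only KO TRAP 3 reached into the input range. The sum of the 7 Meis and Pbx genes overlapped more, at 1013 to 1622 CPM in input and 825.3 to 1215 in TRAP.

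Gene by gene, 6 of the 26 members tested fell in TRAP against input and 0 rose (edgeR quasi-likelihood test, Benjamini-Hochberg adjusted p below 0.05 over 14261 genes). At an unadjusted p below 0.05 the 1 member higher in TRAP was Pbx2, and DESeq2 called it too. Of all genes tested, 2.31% were lower and 2.41% higher in TRAP, and 23.1% of the tested members were lower. Of the 6, 5 are described here: Hoxd3, Hoxc4, Hoxa5 and Hoxb5 and the cofactor gene Meis1. Of the 46 members, 20 Hox genes did not pass the filter on low counts, so these counts are not about all members. The median log2 fold change was −1.07 over the 25 members other than Hoxc6, which had no usable fold, and 0.02 over all genes. Fewer cells of a type and less RNA per cell cannot be told apart in such bulk samples.

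**Figure D3:**
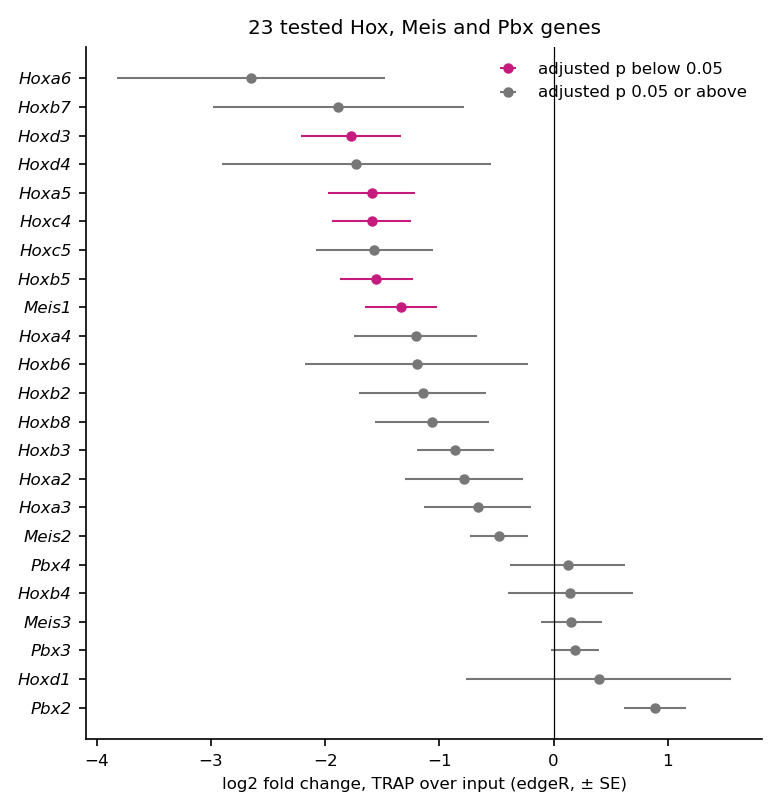
Log2 fold change of TRAP over input (points) with its SE (bars) for 23 tested members, ordered by value, with 5 genes past the threshold in pink. Hoxc6 is left out because it had 0 counts in every WT input library. Most Hox genes lie left of 0, and Meis3, Pbx2, Pbx3 and Pbx4 lie right of it.

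Among the Hox genes of group 3, Hoxd3 (chromosome 2, 74711993 to 74748271, mm10), which shapes the neck vertebrae, was lower. Its levels in input were 28.1, 35.0 and 39.4 CPM in WT and 31.7, 22.4, 13.9, 25.4 and 43.2 in KO. In TRAP they were 20.4, 6.31, 4.43, 16.5 and 18.03 CPM in WT and 0.93, 2.61, 7.19, 9.98 and 18.1 in KO. All 10 TRAP libraries lay below the input median and 6 below the lowest input library. Hoxd3 fell by 1.77 ± 0.44 (log2 fold change ± SE, as below; edgeR adjusted p = 0.0174; n = 10 and 8). It shares its span, but no exon bases, with Hoxd4.

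In group 4, Hoxc4 (chromosome 15, 103034395 to 103036852) was lower. Its input levels were 50.05, 36.2 and 15.7 CPM in WT and 64.0, 34.9, 37.1, 28.5 and 31.1 in KO, and its TRAP levels 6.41, 9.94, 11.5, 5.26 and 10.4 in WT and 25.2, 20.2, 8.54, 9.41 and 13.1 in KO. The lowest input library, WT input 5, lay below 2 KO TRAP libraries and above the other 8 TRAP libraries. Hoxc4 fell by 1.59 ± 0.34 (edgeR adjusted p = 0.00647). Its neighbor in group 5, Hoxc5, had a log2 fold change of −1.57 ± 0.51 but did not pass (adjusted p = 0.0772), and passed with DESeq2 (adjusted p = 0.00445).

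In group 5, the highest Hox genes of the tissue were lower. Hoxb5 (chromosome 11, 96303512 to 96306121), which acts in the crest cells of the gut, had 219.4, 160.7 and 181.2 CPM in WT input and 215.1, 195.5, 127.7, 200.1 and 319.6 in KO input. It had 65.3, 32.7, 31.7, 106.1 and 92.8 CPM in WT TRAP and 71.8, 62.4, 143.2, 60.4 and 12.5 in KO TRAP. Only KO TRAP 3 lay above the lowest input library. Hoxb5 fell by 1.55 ± 0.32 (edgeR adjusted p = 0.00389), a level 2.93-fold lower. It was the 1 member to pass with the WT libraries alone (−1.74, adjusted p = 0.0183) and in each sequencing run alone.

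Hoxa5 (chromosome 6, 52201754 to 52204587) had 116.0, 44.8 and 53.9 CPM in WT input and 132.9, 58.4, 81.6, 97.2 and 112.8 in KO input. In TRAP it had 21.8, 15.5, 5.31, 50.9 and 44.1 CPM in WT and 29.9, 6.86, 58.7, 28.8 and 32.5 in KO. The TRAP libraries all lay under the input median, and 8 of 10 under the lowest input library. Hoxa5 fell by 1.59 ± 0.38 (edgeR adjusted p = 0.0133), which did not pass once WT input 1 was left out (−1.27, adjusted p = 0.0794).

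**Figure D4:**
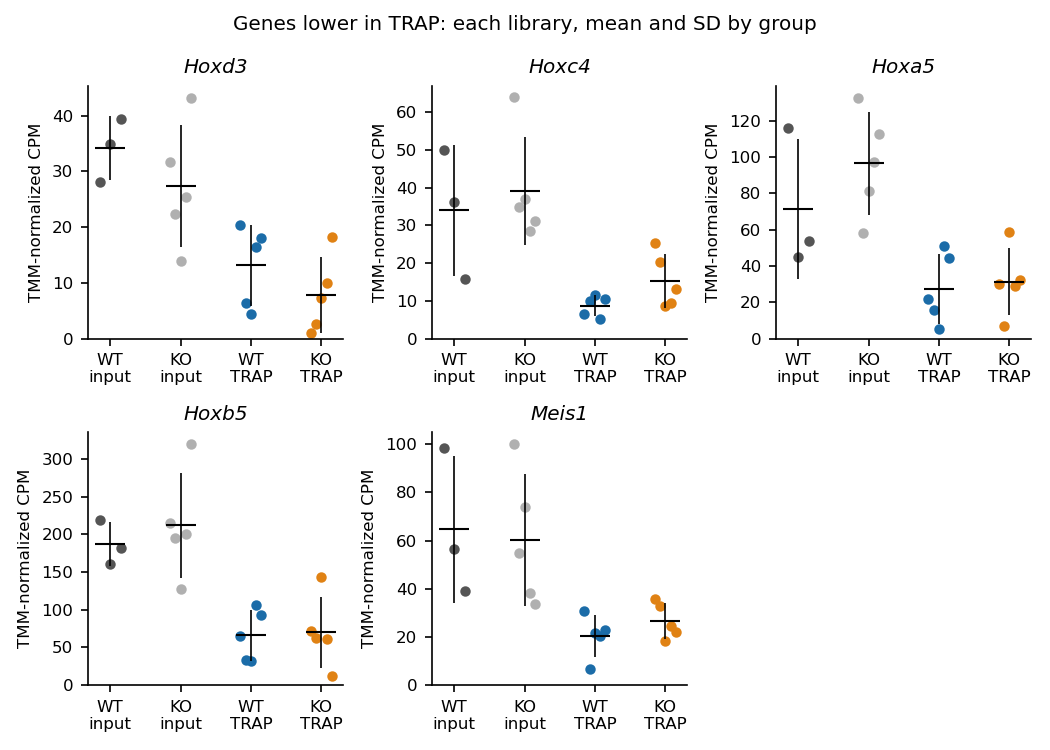
CPM of 5 genes lower in TRAP in every library (points), with the mean (short line) and SD (bar) of each group (n = 3 for WT input, n = 5 for the others). In each panel both TRAP groups sit below both input groups in their means, while single libraries overlap.

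Of the cofactors, Meis1 (chromosome 11, 18880428 to 19018969), a partner of Hox proteins best known from blood stem cells, was lower. It had 98.5, 56.5 and 39.1 CPM in WT input and 100.2, 54.9, 74.0, 38.1 and 33.5 in KO input, against 30.6, 6.47, 21.6, 20.6 and 23.0 in WT TRAP and 35.7, 32.7, 18.1, 24.5 and 22.1 in KO TRAP. Only the library labelled KO TRAP 1, at 35.7 CPM, lay above the lowest input library. Meis1 fell by 1.34 ± 0.32 (edgeR adjusted p = 0.0130), and by 1.18 once WT input 1 was left out, which ended the call (adjusted p = 0.0618).

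The other cofactors did not pass. Pbx2 was nearest to a rise, with 33.7 to 82.5 CPM in input (median 45.5) and 49.1 to 228.8 in TRAP (median 91.8), the highest in the library labelled KO TRAP 1. Its log2 fold change was 0.89 ± 0.27 (edgeR adjusted p = 0.0563), and it passed with DESeq2 (adjusted p = 0.0172). Meis2 had a log2 fold change of −0.48 ± 0.25, Meis3 0.16 ± 0.27, Pbx3 0.19 ± 0.21 and Pbx4 0.12 ± 0.50. Meis2 and Pbx3 took opposite values in the 2 sequencing runs: in mean log2 CPM, TRAP less input was −1.01 for Meis2 in run 1 and 0.23 in run 2, and −0.25 and 0.90 for Pbx3.

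Among the other Hox genes the values were mostly negative and their errors wide. Hoxb3 had −0.86 ± 0.34 (edgeR adjusted p = 0.147), Hoxa4 −1.21 ± 0.54, Hoxb2 −1.15 ± 0.56, Hoxb8 −1.07 ± 0.50, Hoxa2 −0.78 ± 0.52 and Hoxa3 −0.66 ± 0.47. Hoxb8, whose loss in mice leads to overgrooming, was at 9.75 to 45.5 CPM in input and 1.06 to 18.6 in TRAP. The low genes Hoxa6 (−2.65 ± 1.17), Hoxb7 (−1.88 ± 1.10), Hoxd4 (−1.73 ± 1.18) and Hoxb6 (−1.20 ± 0.97) had SE near 1. Hoxb4 (0.15 ± 0.55) and Hoxd1 (0.40 ± 1.16) lay within their error of 0.

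These 5 differences were of one sign in both runs and genotypes. The genes were picked by the fit of these same libraries, so the signs in its parts are no separate support. Lower members past the threshold numbered 1 with the WT libraries alone and 0 with the KO libraries alone. In mean log2 CPM, TRAP less input was −1.60 in run 1 and −2.10 in run 2 for Hoxb5, −2.23 and −1.13 for Hoxa5, −2.29 and −1.18 for Hoxd3 and −1.80 and −1.37 for Hoxc4. It was −1.79 and −0.70 for Meis1. By genotype it was −1.67 in WT and −1.88 in KO for Hoxb5, −1.57 and −2.20 for Hoxd3, −1.62 and −1.83 for Hoxa5, −1.83 and −1.39 for Hoxc4 and −1.70 and −1.09 for Meis1. Without the library labelled KO TRAP 1, and without that labelled WT input 5, 6 members were lower again. Without WT input 1 the count was 3 (Hoxd3, Hoxc4 and Hoxb5), and without WT input 2/3 it was 5. Over all genes tested, 330 were lower in the main fit and 187 without WT input 1. Without KO TRAP 1 there were 361, and without WT input 5 there were 183.

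Markers of serotonin neurons and of other cells moved between the same libraries. Of 12 serotonergic genes, 11 rose in TRAP and 0 fell (median log2 fold change 4.51), and their summed level was 198.8 to 325.1 CPM in input and 4278 to 10740 in TRAP. Marker lists of the other cell types had negative medians. Most of their genes reached 1 CPM in at least 1 library of each TRAP group; the exceptions were Tbr1 and Mnx1 in both groups, Phox2a in WT TRAP, and Tmem119, Aqp1 and Lum in KO TRAP. Of 8 oligodendrocyte genes 5 fell (median −1.28), with a summed level of 4957 to 12900 CPM in input and 1091 to 5445 in TRAP. Of 8 astrocyte genes 3 fell (median −1.24; 792.1 to 1488 and 201.3 to 985.3 CPM), and of 6 fibroblast and meningeal genes 2 fell (median −1.86; 445.7 to 1481 and 47.2 to 652.2 CPM).

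Markers of other neurons were lower too. Of 6 GABAergic and glycinergic genes 3 fell (median −0.99; 746.7 to 1674 CPM in input and 295.6 to 823.7 in TRAP), and of 5 tested glutamatergic genes 3 fell (median −1.03; 429.2 to 766.8 and 210.1 to 401.2 CPM). Of 6 dopaminergic and noradrenergic genes 1 fell, Slc6a2 (median −1.48; 53.3 to 143.7 and 12.99 to 46.6 CPM). No gene passed among 5 cholinergic (median −0.76), 6 microglial (−1.88), 6 endothelial (−0.46) and 6 ependymal genes (−0.77). Tbr1 and Mnx1 were under 1 CPM in every library. The part of these cells in the Hox and Meis values was not tested.

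Genes listed for patterning of the midbrain and first rhombomere did not move as one. Of 15 tested genes of that list, 2 rose and 2 fell in TRAP. The median was −0.94, and only 4 of the 15 had values above 0. Not all of them are confined to that tissue. En1, a homeobox gene of the midbrain and front hindbrain, was at 13.5 ± 7.92 CPM in input (SD, n = 8) and 48.4 ± 23.4 in TRAP (n = 10), and rose by 1.74 ± 0.39 (edgeR adjusted p = 0.00824). Nkx6-1 rose by 2.71 ± 0.77 (adjusted p = 0.0411, edgeR), from 1.51 ± 1.91 to 9.64 ± 6.56 CPM. Pax2 fell by 2.03 ± 0.39 (edgeR adjusted p = 0.00205) and Irx1 by 1.37 ± 0.39 (edgeR adjusted p = 0.0390); Pax2 also stands in the list of GABAergic and glycinergic genes.

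Few of the genes that set or keep Hox expression passed. Of 9 tested regulators of Hox genes in rhombomeres 1 fell, Zfp703 (−1.43 ± 0.35; edgeR adjusted p = 0.0156). Of 20 genes of the retinoic acid pathway, which switches on Hox genes from the 3′ end, 2 fell and 0 rose. The one with the smaller p was Crabp1, which binds retinoic acid (−2.13 ± 0.44, from 83.1 ± 50.8 to 16.8 ± 15.2 CPM; edgeR adjusted p = 0.00428). Of 33 Polycomb and trithorax genes 1 rose, Kdm6b, a demethylase of the Polycomb mark, from 71.3 ± 19.1 to 303.5 ± 169.0 CPM (2.09 ± 0.29; edgeR adjusted p = 4.76e-05).

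The remaining lists held 1 call. Of 13 other TALE genes and partners of Pbx or Meis 1 fell, Crebbp, a histone acetyltransferase gene (−0.85 ± 0.20; edgeR adjusted p = 0.0126). Of 16 tested genes that flank the Hox clusters none passed (median −0.06; smallest p, Chn1 with 0.57 ± 0.17, edgeR adjusted p = 0.0543, and Skap2 with −0.93 ± 0.38, adjusted p = 0.168). Of the 15 non-coding and microRNA genes of the clusters in the files none had enough counts to be tested; Hotair and the 7 microRNA genes among them had 0 counts in every library.

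Loss of Celf6 was compared next, in each kind of RNA. No member passed between KO and WT (edgeR, adjusted p below 0.05). In TRAP 0 of 20 tested members and 0% of 12204 genes passed, and in input 0 of 25 and 0% of 13036 genes. Celf6 itself was thus not called, at means of 141.8 CPM in WT TRAP and 51.2 in KO TRAP. Absence of a call therefore does not show equal levels. None of the tested members had an unadjusted p below 0.05 in either comparison, against 455 and 376 of all genes. DESeq2 called 9 genes in TRAP and 4 in input, 0 of them members, and edgeR called 0 members without the library labelled KO TRAP 1 or that labelled WT input 5. In TRAP 12 members had positive and 8 negative values, with a median SE of 0.65; in input 14 were positive and 11 negative, with a median SE of 0.56. Precision differed widely between genes: in input the SE was 0.25 for Meis2 and 2.35 for Hoxd1.

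**Figure D5:**
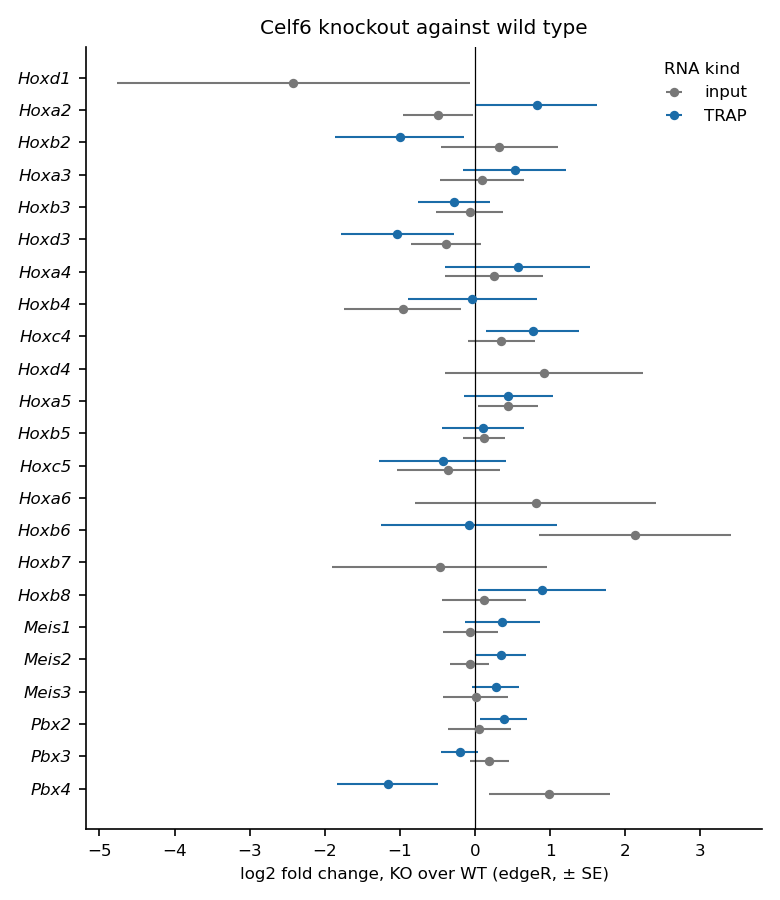
Log2 fold change of KO over WT (points) with its SE (bars) for tested members in input (gray) and TRAP (blue); a gene without a point in a kind of RNA was not tested there, and Hoxc6 is left out. No member passed the threshold in either kind.

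The members lower in TRAP were compared between genotypes first. In TRAP, Hoxb5 had 65.7 ± 34.0 CPM in WT (SD, n = 5) and 70.1 ± 46.9 in KO (n = 5), a log2 fold change of 0.11 ± 0.55. In input it had 187.1 ± 29.8 CPM in WT (n = 3) and 211.6 ± 69.1 in KO (n = 5), 0.12 ± 0.29. Hoxa5 had 0.45 ± 0.60 in TRAP and 0.44 ± 0.40 in input, Hoxc4 0.77 ± 0.62 and 0.35 ± 0.45, and Hoxd3 −1.03 ± 0.76 and −0.38 ± 0.47. Meis1 had 0.36 ± 0.50 in TRAP and −0.06 ± 0.36 in input, and Pbx3 −0.20 ± 0.25 and 0.19 ± 0.26.

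Values for some low genes were larger and had wide errors, such as Hoxd1 in input (log2 fold change −2.42 ± 2.35). In TRAP the smallest p belonged to Pbx4, at 6.17 to 38.3 CPM in WT and 6.04 to 7.49 in KO (−1.16 ± 0.67; edgeR adjusted p = 0.999). WT TRAP 2 alone held the 38.3 CPM. In input Hoxb6 had 7.50, 4.95 and 0 CPM in WT and 28.5, 10.8, 5.12, 14.6 and 0.59 in KO (2.13 ± 1.28; edgeR adjusted p = 1.00), and the genotypes overlapped.

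Hoxc6 was counted unevenly. It had 105 counts in KO input 1, 66 in KO input 4, 0 in KO input 3 and 0 in all WT input libraries, and in TRAP 6.22 CPM in WT TRAP 4, 2.61 in WT TRAP 5 and at most 0.37 elsewhere. No fold is given for it, since WT input is at 0. In the test of whether the KO difference itself differed between TRAP and input (the interaction), 0 of 26 members and 0% of 14261 genes passed (edgeR). At an unadjusted p below 0.05, 1 member passed, Hoxc6, and DESeq2 called 0. Pbx4 was next (−2.08 ± 1.02; edgeR adjusted p = 1.0).

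Detection by genotype gave close counts: 18 Hox genes in WT input, 17 in KO input, 16 in WT TRAP and 14 in KO TRAP. Hoxd1 was detected in WT input and not in KO input, and Hoxc6 in KO input and not in WT input. Hoxb7, not detected over all TRAP libraries, was detected in WT TRAP, with 0 to 5.46 CPM and at least 1 CPM in 3 of 5 libraries, and not in KO TRAP, with 0 to 0.37 CPM. These differences were not tested. No gene of the lists above passed in KO against WT either.

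Hox genes had a wider spread between libraries than their cofactors, at lower levels. The SD as a share of the mean had a median of 58.9% over 19 Hox genes in input and 72.0% in TRAP, against 34.4% and 35.2% over the 7 Meis and Pbx genes. Sequencing a library again returned values close to the first. Over the 26 detected members, 2 runs of 1 library differed by a median of 0.17 on the log2(CPM + 0.5) scale without TMM factors (104 values), and different libraries of a group by 0.80 (858 values). Hoxb5 in KO TRAP 3, for example, had 146.6 CPM in the first run and 141.0 in the repeat.

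Splicing of member genes was read from the percent spliced in (PSI, the share of transcripts with the exon, from 0 to 1) in the authors' deposited tables. Only 1 event in a member gene had values in at least 3 libraries of each genotype: a skipped exon of 189 bases in Meis2 (chromosome 2, 116041939 to 116042127), included in few transcripts. In TRAP its PSI was 0.0352, 0.0561, 0.0417, 0.0522 and 0.0119 in WT and 0.0255, 0.0699, 0.0104, 0.0178 and 0.0165 in KO. KO TRAP 2 was highest, WT TRAP 5 lowest but one, and the genotypes overlapped. The difference, KO less WT, was −0.66 ± 0.60 on the log2 odds scale (limma adjusted p = 0.935), and 0.0537% of 1861 splicing events passed in TRAP.

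In input the Meis2 exon was as rare, at 0.0134, 0.0300 and 0.0223 in WT and 0.0290, 0.0082, 0.0221, 0.0322 and 0.0320 in KO. The difference was 0.16 ± 0.47 (limma adjusted p = 1.0), and 0% of 1154 events passed (38 at an unadjusted p below 0.05). The authors' deposited table gives this event a false discovery rate of 0.975 in TRAP and 1 in input. Other events in Meis2, Meis3, Pbx3 and Pbx4 had values in too few libraries to be tested. The authors' deposited tables list Pbx3 as a gene bound by CELF6 in its 3′ UTR.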

How the data were processed

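Counts per gene were deposited by the authors, 1 file per library, made with featureCounts 1.4.6-p5 on mm10 without strand, per the file headers; trimming with Trimmomatic and alignment with STAR are named in the submitters' processing notes. Per the labels' protocols, amplification was with Nugen Ovation 2. PSI values are fractions in tables the authors deposited, made with MISO and kept at credible intervals of at most 0.2, per the series' design text. The p-value and false discovery rate columns of the authors' deposited tables were used for comparison only.

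Left out were 4 repeat runs of replicate 3 and replicate 4 of WT input, marked as an outlier in the labels (325072 counts). Counts were tested by the quasi-likelihood F test of edgeR 4.0.16 in R 4.3.3, after filterByExpr and TMM scaling, with the sequencing run as covariate, and adjusted by Benjamini-Hochberg over all genes tested at 0.05; alternatives were DESeq2 1.42.0, other scaling, no filter, no run term, single runs or genotypes, each library left out and a replicate block. TRAP against input was the mean of the KO and WT differences. SE is the absolute log2 fold change over the root of F. Log2 CPM had a prior count of 2. PSI was held between 0.01 and 0.99 and tested with limma 3.58.1 on log2(PSI/(1−PSI)). The tests were tried on simulated data. Intervals and floors cover counting error only.

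Members, gene lists and tests were chosen with earlier results of these data known. Members were named with values when detected by the rule in the text; of each list at most 4 genes past the threshold, or the 2 of smallest p, could be named. Hoxb1, Hoxd8, Hoxb9 and Hoxd13 were singled out after their values were seen. By the labels' design, libraries of a genotype with equal numbers are from 1 brain, but same-numbered libraries did not deviate together: r was −0.034 to 0.064 for KO and −0.012 to 0.040 for WT. Results of some members and list genes are not reported here.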

Additional observations from a re-analysis of the deposited data

Results flagged for a closer look

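Of 78 groups of 5 libraries (26 members in 3 groups), 4 held a library far from the others, and chance flags about 5% of groups. Hoxa2 was at 9.81 CPM in KO input 4, against 29.3 to 39.5 in the other KO input libraries. Hoxd4 was at 35.0 CPM in KO input 5, against 1.16 to 2.98. Hoxa6 was at 7.203 CPM in KO TRAP 5, against 0 to 0.19. Meis1 was at 6.47 CPM in WT TRAP 2, against 20.6 to 30.6.

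In the WT input library set aside, 2 members stood above every input library used, without TMM factors. Hoxa5 had 98 counts of 325072, 301.5 CPM (exact binomial 95% interval 244.8 to 367.4), against 44.6 to 132.1 CPM, and Hoxb3 had 40 counts, 123.0 CPM (87.9 to 167.6), against 30.3 to 111.8. That library held fewer than 10% of the counts of the shallowest library used.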

How the results depend on the processing

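The count of members lower in TRAP, 6, was 5 to 7 with DESeq2, relative log expression factors, no filter, no run term, run 1 alone and WT input 2 and 3 kept apart. It was 1 with run 2 alone, 1 with WT libraries alone and 0 with KO libraries alone, all with fewer samples, and 3 to 7 with 1 library left out. The count of members higher in TRAP, 0, was 1 with DESeq2, with no filter, with WT input 2 and 3 kept apart (Pbx2 in each) and with run 2 alone (Pbx3), and 0 to 1 with 1 library left out. With the replicate block the counts were 6 lower and 0 higher, and 0 in KO against WT in TRAP, in input and in the interaction, and it changed no call. In KO against WT that block joined KO and WT libraries of equal number, which are from different brains. In TRAP against input it put WT TRAP 2 and WT TRAP 3 in the block of WT input 2/3. Over all genes, 673 were called in TRAP against input, and 1332 with DESeq2, 1065 with no filter, 233 with run 1 alone, 160 with WT and 124 with KO libraries alone, 540 with the block and 346 (without WT input 5) to 831 with 1 library left out. In KO against WT 0 were called in TRAP and 0 in input, with 16 and 4 with no filter and 9 and 4 with DESeq2. Run 2 alone, with 2 TRAP libraries of each genotype, gave 264 in TRAP. It held 1 WT input library (WT input 5), so its input and interaction counts are not given. In the interaction 0 were called, and 4 with DESeq2 and 3 with no filter. No alternative called a member in KO against WT or in the interaction. Hoxa6 in TRAP against input turned from −2.65 to 1.96 with run 2 alone (the cause was not tested); 32 other values of TRAP against input changed sign without a call. Asking for 1 CPM in every library left 9 Hox genes detected in TRAP and 12 in input, by construction of the stricter rule. The Meis2 difference in TRAP, −0.66, was 0.05 with PSI held between 0.05 and 0.95. That limit gives most of its TRAP values the same number, so a small difference follows by construction. Depth limits the low genes: 3 counts were worth 0.27 to 0.89 CPM by library.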
